A study of Mus musculus with 25 samples.

Results

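Clostridium scindens is a gut anaerobe of the family Lachnospiraceae that the taxonomy of this table places in the genus Lachnoclostridium. Its amplicon sequence variants (ASVs, distinct 16S rRNA gene sequences left after error removal) were taken as all ASVs whose genus field reads Lachnoclostridium and whose species field holds the word scindens. The rule found 44 of 1555 ASVs, with 7384 of 300831 counts (2.45%). They made up 44 of the 108 Lachnoclostridium ASVs and 44 of the 643 Lachnospiraceae ASVs. The genus held 4 species names, and scindens was the most abundant of them.

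The libraries are full-length 16S amplicons read by PacBio sequencing from feces of C57BL/6 mice, 5 libraries in each of 5 groups, in a study of bone loss and the gut microbiota. The Sham group went through sham surgery and the OVX group through ovariectomy, as the usual reading of the labels, and served the study as its model of estrogen deficiency. OVX+GEX mice were ovariectomised and given GEX, which the labels do not spell out and which the design text links to a traditional medicine; OVX+PBS mice were given buffered saline, and OVX+FMT mice a fecal transplant from donors that the labels do not name. Age, dose, cage and day are not given in the labels, and all samples are labelled as male, although ovaries were removed.

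C. scindens is known for 7α-dehydroxylation of bile acids, the step by which a few gut clostridia turn the liver's primary bile acids cholate and chenodeoxycholate into the secondary bile acids deoxycholate and lithocholate. The enzymes are encoded by the bai genes, and the reaction needs bile acids that other bacteria have already freed from taurine or glycine with a bile salt hydrolase. Some C. scindens strains also cleave the side chain of glucocorticoids and thereby form androgens. A bacterial genome usually carries several copies of the 16S rRNA gene, which can differ slightly from each other. The species name here is that of a relative in a database that is not named, and neither bai genes nor bile acids were measured.

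Library totals ran from 8498 to 22404 counts with a median of 10123, and the 5 deepest libraries, each with at least 17367 counts, were Sham replicates 3 and 4, OVX+PBS replicate 1 and OVX+FMT replicates 1 and 5. Where nothing was counted, the share could still be as high as 3 counts would give, which is 0.0134% in the deepest library and 0.0353% in the shallowest. Intervals and such floors cover counting error only. Nothing in the labels tells how the mice were kept, so the p-values reflect only how much these libraries vary.

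C. scindens was most abundant in Sham feces. It held 3.08%, 5.77%, 3.22%, 9.65% and 2.98% of the counts in Sham replicates 1 to 5, a mean of 4.94% ± 2.88 (SD, n = 5). Without replicate 4, the highest Sham library, it had a mean of 3.76% ± 1.34 (SD, n = 4). In OVX it held 0.880%, 7.59%, 1.00%, 0.672% and 1.69%, a mean of 2.37% ± 2.95 (SD, n = 5). Replicate 2 stood far above the other OVX libraries, which all lay below the lowest Sham library; without it the OVX mean was 1.06% ± 0.441 (SD, n = 4).

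The OVX+GEX libraries were the most spread out, at 1.29%, 7.64%, 3.03%, 0% and 0.195%, with a mean of 2.43% ± 3.15 (SD, n = 5). Replicate 4 had no scindens count among 8498, which allows a share of up to 0.0353%, while replicate 2 was as high as the highest OVX library. Without replicate 2 the OVX+GEX mean was 1.13% ± 1.39 (SD, n = 4). OVX+PBS held 1.52%, 1.67%, 1.28%, 0.0818% and 0.0340%, a mean of 0.916% ± 0.796 (SD, n = 5), so that 3 libraries lay near 1.5% and replicates 4 and 5 near the floor with 7 and 3 counts. OVX+FMT held 0.174%, 0.228%, 0.179%, 3.33% and 0.0405%, a mean of 0.791% ± 1.42 (SD, n = 5). Replicate 4 alone carried 78.0% of the scindens counts of that group, and without it the mean was 0.155% ± 0.0802 (SD, n = 4).

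**Figure D1:**
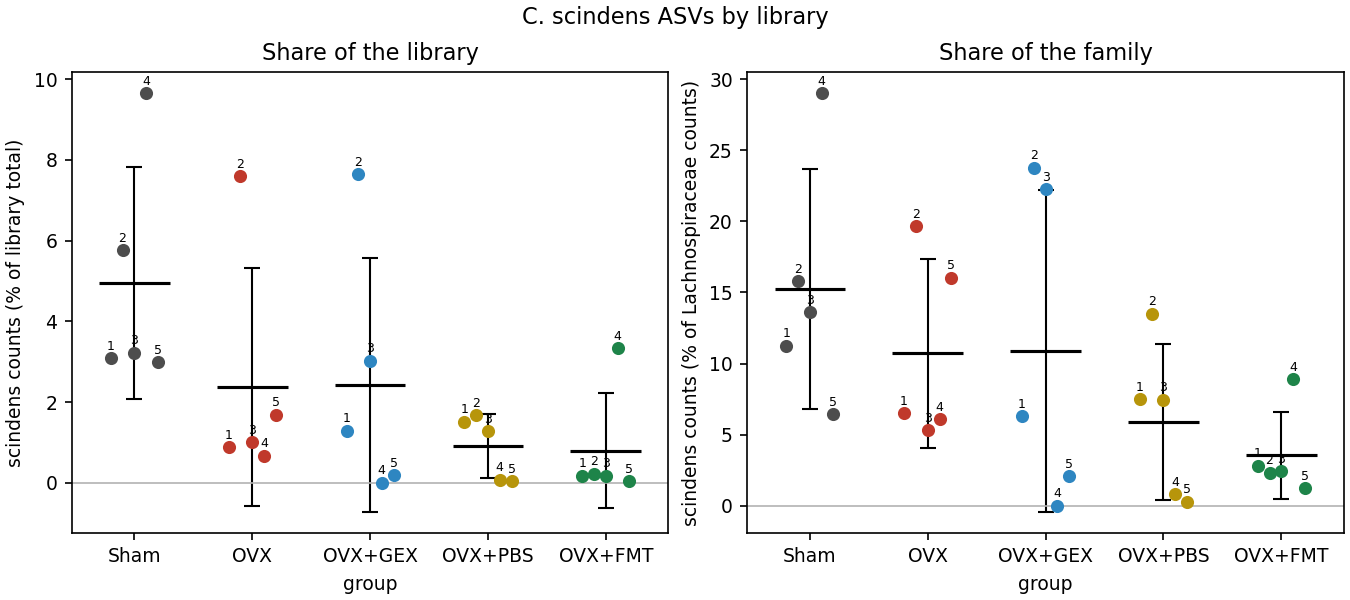
Scindens counts as a percentage of the library total (left) and of the Lachnospiraceae counts (right) in each of 25 libraries; points are libraries labelled by replicate number, horizontal bars are group means and whiskers 1 SD (n = 5). All Sham libraries held at least 2.98% of the total, all OVX+PBS libraries at most 1.67%, and OVX replicate 2 and OVX+FMT replicate 4 stood apart in their groups.

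By the group medians OVX+PBS (1.28%) stood above OVX (1.00%). By the group means the order was Sham, OVX+GEX, OVX, OVX+PBS and OVX+FMT. The test was edgeR's quasi-likelihood F test on counts summed per species, for the 125 species that reached 3 counts in 5 or more libraries, with Benjamini-Hochberg adjustment over all of them. No neighbours in that order differed beyond their spread: the log2 fold change was -0.75 for OVX+GEX against Sham (SE 1.04, edgeR adjusted p = 0.963), 0.37 for OVX+GEX against OVX (SE 1.03, edgeR adjusted p = 1.0), -1.05 for OVX+PBS against OVX (SE 1.04, edgeR adjusted p = 0.750) and -0.81 for OVX+FMT against OVX+PBS (SE 1.04, edgeR adjusted p = 0.831). The standard errors are near 1, a factor of about 2 in level, so differences of that size were not detectable with these libraries. Larger estimates against Sham also missed the threshold: -2.17 for OVX+PBS (edgeR adjusted p = 0.283) and -2.98 for OVX+FMT (edgeR adjusted p = 0.157). The estimate for OVX+GEX against OVX fell to -0.49 without OVX+GEX replicate 2 and rose to 1.16 without OVX replicate 2.

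Ovariectomy was set against sham surgery first. The estimate for OVX was -1.11 on the log2 scale (SE 1.04, edgeR adjusted p = 0.894), which missed the threshold of 0.05. Of the 5 OVX libraries 4 lay below the lowest Sham library, so the groups overlapped. How many other species or ASVs had 4 of 5 libraries below was not counted. Complete separation with lower OVX values is a stricter criterion, which scindens did not meet. It was seen in 2 of 125 species (1.6%) and 5 of 379 ASVs (1.32%). Without OVX replicate 2 the log2 fold change was -1.88 and without Sham replicate 4 it was -0.25, and the adjusted p lay between 0.511 and 1.0 over the other fits. The exact permutation test on the shares gave 0.375 after adjustment over 7 comparisons.

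Among these 7 comparisons the gaps were widest between Sham and the mice given saline or a transplant, which share the Sham libraries as control. The log2 fold change was -2.17 for OVX+PBS against Sham (SE 1.08, edgeR adjusted p = 0.283, 0.134 to 0.511 over the other fits), and all 5 OVX+PBS libraries lay below all 5 Sham libraries. On the shares themselves, the exact two-sided permutation test gave p = 0.00794, the smallest that 5 libraries against 5 allow, and 0.0556 after adjustment over 7 comparisons. For a comparison that alone reaches this smallest p, the adjusted value cannot fall below 0.0556. It could therefore not have passed 0.05. Such a complete separation with lower OVX+PBS values was seen in 10 of 125 species (8.0%), and edgeR placed 0 of 125 species (0.0%) past the threshold.

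For OVX+FMT against Sham the log2 fold change was -2.98 (SE 1.11, unadjusted p = 0.0113, edgeR adjusted p = 0.157), with 4 of 5 OVX+FMT libraries below the lowest Sham library. How many other species had 4 of 5 libraries below was not counted. Complete separation with lower OVX+FMT values, which scindens did not reach, was seen in 5 of 125 species (4.0%). The exact permutation test on shares gave p = 0.0317 and 0.111 after adjustment over 7 comparisons. The call turned on OVX+FMT replicate 4: without it the log2 fold change was -4.54 and the edgeR adjusted p 0.0206, the lowest over the alternatives, which reached 0.478. With that library left out edgeR called 8 of the species tested, a number not given here, against 0 of 125 (0.0%) with it. It is the OVX+FMT library with the highest scindens share, so leaving it out widens the gap to Sham. Leaving out any other OVX+FMT library raised the edgeR adjusted p for scindens to between 0.363 and 0.478.

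**Figure D2:**
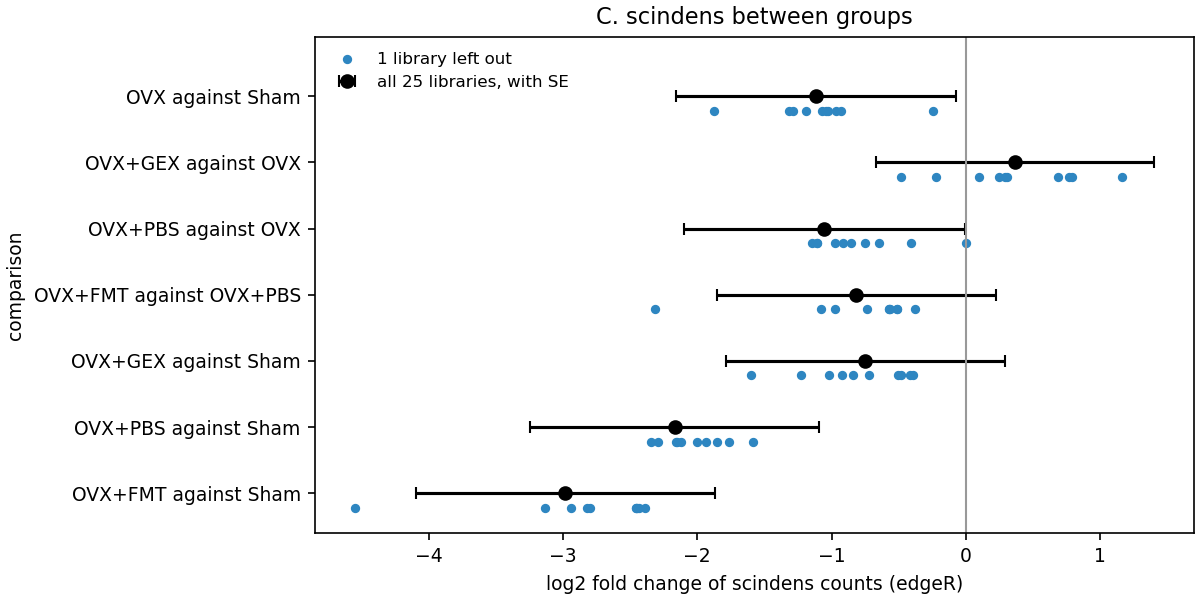
Log2 fold change of the summed scindens counts in 7 comparisons from edgeR's quasi-likelihood fit; black points are the fit of all 25 libraries with 1 SE, and blue points the fits with 1 library of either group left out. The estimates against Sham run from -0.75 for OVX+GEX to -2.98 for OVX+FMT, and the point at -4.54 is the fit without OVX+FMT replicate 4.

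The family as a whole also had a lower mean in every other group than in Sham. In Sham the Lachnospiraceae share was 33.4% ± 8.71, and OVX+FMT had 12.8% ± 13.9 (SD, n = 5). The means were 18.5% in OVX, 18.0% in OVX+GEX and 14.3% in OVX+PBS. The highest OVX+PBS library (20.2%) lay below the lowest Sham library (23.7%), while the highest OVX+FMT library reached 37.3%. The family shares were not tested. Scindens counts made up 15.2% ± 8.45 of the Lachnospiraceae counts in Sham, 10.7% ± 6.64 in OVX, 10.9% ± 11.3 in OVX+GEX, 5.91% ± 5.48 in OVX+PBS and 3.55% ± 3.06 in OVX+FMT (SD, n = 5). The order of the group means was the same as for shares of the library. By the medians OVX+PBS (7.45%) stood above OVX (6.51%) and OVX+GEX (6.32%). Within the family the difference from Sham was -11.7 percentage points for OVX+FMT (exact permutation p = 0.0159) and -9.32 for OVX+PBS (exact permutation p = 0.0714), with p-values of 0.111 and 0.250 after adjustment over 7 comparisons. How far these differences rest on the share of other families was not tested.

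Within the genus scindens held most of the counts on average in every group. It made up 71.9% ± 12.6 of the Lachnoclostridium counts in Sham, 64.4% ± 12.7 in OVX, 55.7% ± 36.4 in OVX+GEX, 82.7% ± 16.5 in OVX+PBS and 62.1% ± 9.02 in OVX+FMT (SD, n = 5). The OVX+PBS mean includes replicates 4 and 5, at 100% on only 7 and 3 scindens counts. OVX+PBS replicates 1, 2 and 3 stood at 63.3%, 73.2% and 77.2%. OVX+GEX replicate 4 held other Lachnoclostridium at 0.377% of its counts and none of scindens.

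The 44 ASVs differed widely in abundance. Summed over all libraries they ranged from 3 to 917 counts with a median of 33, and the 8 most abundant held 77.2% of the scindens counts. Of the 44, 15 (34.1%) were seen in 1 library each, as were 39.1% of all ASVs, and those 15 held 2.63% of the scindens counts. The same filter left 13 of the 44 (29.5%; 379 of 1555 ASVs, 24.4%, over the whole table), which held 88.2% of the scindens counts, and the other 31 were not tested.

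The number of scindens ASVs seen was also highest in Sham. Per library it was 14, 14, 15, 24 and 11 in Sham, 5, 14, 7, 5 and 8 in OVX, 9, 13, 12, 0 and 3 in OVX+GEX, 9, 9, 5, 1 and 1 in OVX+PBS, and 3, 3, 2, 9 and 1 in OVX+FMT. Every library of OVX+PBS and OVX+FMT thus held fewer than the lowest Sham library. Sham also had the highest mean number of ASVs of all kinds, with 321 to 438 per library. The highest OVX, OVX+GEX and OVX+FMT libraries had 320, 305 and 299, below every Sham library, while OVX+PBS ran from 130 to 356. Scindens ASVs made up 4.21% ± 0.843 of the ASVs seen in a library in Sham, 3.02% ± 1.02 in OVX, 3.09% ± 2.48 in OVX+GEX, 2.08% ± 1.49 in OVX+PBS and 1.35% ± 0.975 in OVX+FMT (SD, n = 5), with no test. Brought to the shallowest depth of 8498 reads, the expected number was 15.5 ± 4.81 for Sham and 3.55 ± 3.15 for OVX+FMT, against 15.6 ± 4.93 and 3.60 ± 3.13 as counted (SD, n = 5). Over a whole group, 33 of the 44 ASVs were seen in Sham, 20 in OVX, 20 in OVX+GEX, 15 in OVX+PBS and 12 in OVX+FMT; 10 were seen in Sham alone, 7 in OVX alone, 2 in OVX+PBS alone and 0 in OVX+GEX or OVX+FMT alone. Of all 1555 ASVs, 908, 710, 631, 585 and 653 were seen in the groups in that order, and 253, 128, 97, 106 and 101 in 1 group alone.

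**Figure D3:**
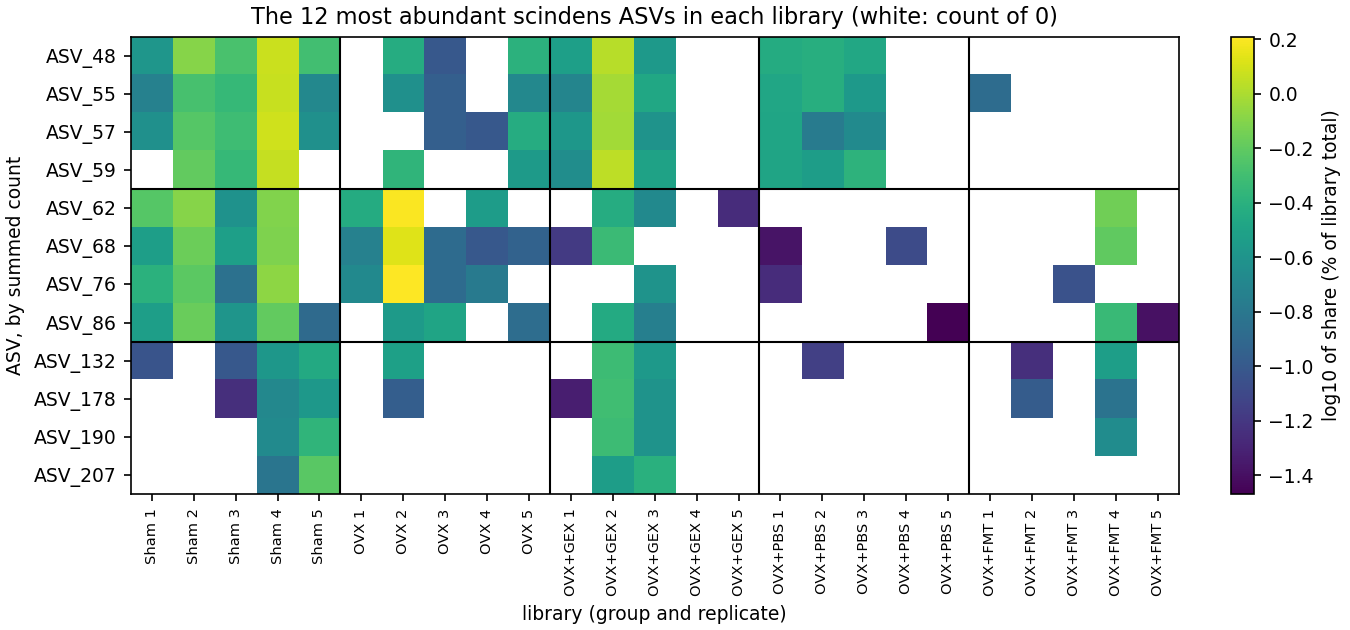
Share of each library's counts held by each of the 12 most abundant scindens ASVs (rows, by summed count) in 25 libraries (columns, by group), on a log10 colour scale; white cells are counts of 0 and lines separate groups and ranks 4 and 8. The 4 ASVs of the top block are filled in most Sham libraries and empty in OVX+FMT except for ASV_55 in replicate 1.

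ASV_48 was the most abundant scindens ASV. It had 25, 78, 92, 267 and 51 counts in the Sham libraries, 0, 41, 9, 0 and 39 in OVX, 32, 106, 24, 0 and 0 in OVX+GEX, 80, 43, 30, 0 and 0 in OVX+PBS, and 0 in all 5 OVX+FMT libraries. It was seen in every Sham library and in 3 of 5 libraries of each of the 3 groups between. Its mean share of 0.656% ± 0.356 in Sham (SD, n = 5) was at least 27.7-fold higher than in OVX+FMT, set against the mean floor of 3 counts per library there (0.0237%).

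ASV_57 followed the same groups. It had 23, 57, 84, 275 and 24 counts in Sham, 0, 0, 10, 10 and 36 in OVX, 28, 94, 22, 0 and 0 in OVX+GEX, 72, 19, 19, 0 and 0 in OVX+PBS, and 0 in all 5 OVX+FMT libraries. Its Sham mean of 0.554% ± 0.406 (SD, n = 5) was at least 23.4-fold higher than in OVX+FMT by the same floor. ASV_48 and ASV_57 were the 2 scindens ASVs past the threshold in OVX+FMT against Sham, with edgeR adjusted p = 0.0294 for both; edgeR called 4 of 379 ASVs in that comparison (1.06%), 3 of them lower in OVX+FMT (0.792%).

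The call for the 2 ASVs depended on which library was left out. It was lost, with edgeR adjusted p-values from 0.0555 to 0.0860, without any 1 of Sham replicates 3 and 4 and OVX+FMT replicates 1, 2, 3 and 5, and it was kept under the other 13 of 19 alternatives for each, the lowest p being 0.00116 by DESeq2. The fitted log2 fold change lay between -9.72 and -8.97 for ASV_48 and between -9.50 and -8.57 for ASV_57 whichever library was left out, values that depend on the prior count because OVX+FMT was at 0. For both ASVs the Sham and OVX+FMT libraries did not overlap, as was so with lower OVX+FMT values for 9 of 379 ASVs (2.37%).

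ASV_55 and ASV_59, next to them in abundance, did not pass the threshold. ASV_55 had 18 to 260 counts in Sham with a median of 51, and in OVX+FMT 30 counts in replicate 1 and 0 in the other 4 libraries (edgeR adjusted p = 0.181, past the threshold in 0 of 19 alternatives). Its shares in Sham and OVX+FMT did not overlap either. ASV_59 had 0, 62, 78, 256 and 0 counts in Sham and 0 in all 5 OVX+FMT libraries (edgeR adjusted p = 0.0516, at least 18.8-fold lower in OVX+FMT by the floor). It passed the threshold in 5 of 19 alternatives, with adjusted p-values from 0.0141 to 0.175. Against OVX+PBS, the saline group, ASV_48 was at least 9.22-fold lower in OVX+FMT (edgeR adjusted p = 0.0661, 0.00391 to 0.197 over the alternatives), so the comparison of transplant with saline missed the threshold. OVX+PBS replicates 4 and 5 had 0 counts of all 4 ASVs, as did OVX+GEX replicates 4 and 5 and OVX replicate 1.

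The next 4 ASVs by abundance had another distribution over the groups. ASV_62 had 57, 78, 42, 175 and 0 counts in Sham, 41, 176, 0, 29 and 0 in OVX, 0, 37, 19, 0 and 6 in OVX+GEX, 0 in all 5 OVX+PBS libraries, and 0, 0, 0, 66 and 0 in OVX+FMT. Its share was 1.59% in OVX replicate 2 and at most 0.799% in a Sham library, and it was not detected in OVX+PBS. The Sham mean was at least 16.8-fold higher than OVX+PBS by the floor (edgeR adjusted p = 0.107) and the OVX mean at least 15.6-fold higher (edgeR adjusted p = 0.106), and neither passed the threshold.

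ASV_68 was seen in 4 of 5 Sham and all 5 OVX libraries, with up to 171 and 149 counts. It had 7 to 9 counts in 2 OVX+PBS libraries and 60 in OVX+FMT replicate 4. ASV_76 had 39, 60, 25, 187 and 0 counts in Sham and 24, 179, 12, 17 and 0 in OVX, and outside these groups it was seen in 3 libraries with 9 to 22 counts. ASV_86 was seen in all 5 Sham libraries with 13 to 144 counts, and its only OVX+PBS count was 3, in replicate 5, so that the groups did not overlap (edgeR adjusted p = 0.107), as was so with lower OVX+PBS values for 10 of 379 ASVs (2.64%). None of the 4 passed the threshold in any of the 7 comparisons.

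The first 4 ASVs together and the next 4 made up different parts of the pooled scindens counts in each group. ASVs ranked 1 to 4 held 46.3% of the scindens counts in Sham, 21.8% in OVX, 51.6% in OVX+GEX, 84.7% in OVX+PBS and 7.41% in OVX+FMT, and ASVs ranked 5 to 8 held 32.8%, 59.8%, 16.0%, 4.84% and 46.2%. These are shares of pooled counts, which the library with most counts dominates in each group. In OVX replicate 2, ranks 5 to 8 held 63.6% and ranks 1 to 4 13.6% of the scindens counts; in OVX+PBS replicates 1, 2 and 3, ranks 1 to 4 held 89.4%, 73.4% and 97.3%; and in OVX+FMT replicate 4, ranks 5 to 8 held 53.8% and ranks 1 to 4 none. Other libraries of these groups went the other way: ranks 1 to 4 held 74.8% and ranks 5 to 8 14.7% in OVX replicate 5, ranks 5 to 8 held all of the 7 and 3 counts in OVX+PBS replicates 4 and 5, and ranks 1 to 4 held 76.9% and ranks 5 to 8 none in OVX+FMT replicate 1. The grouping by rank was made after the values were seen and carries no test.

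**Figure D4:**
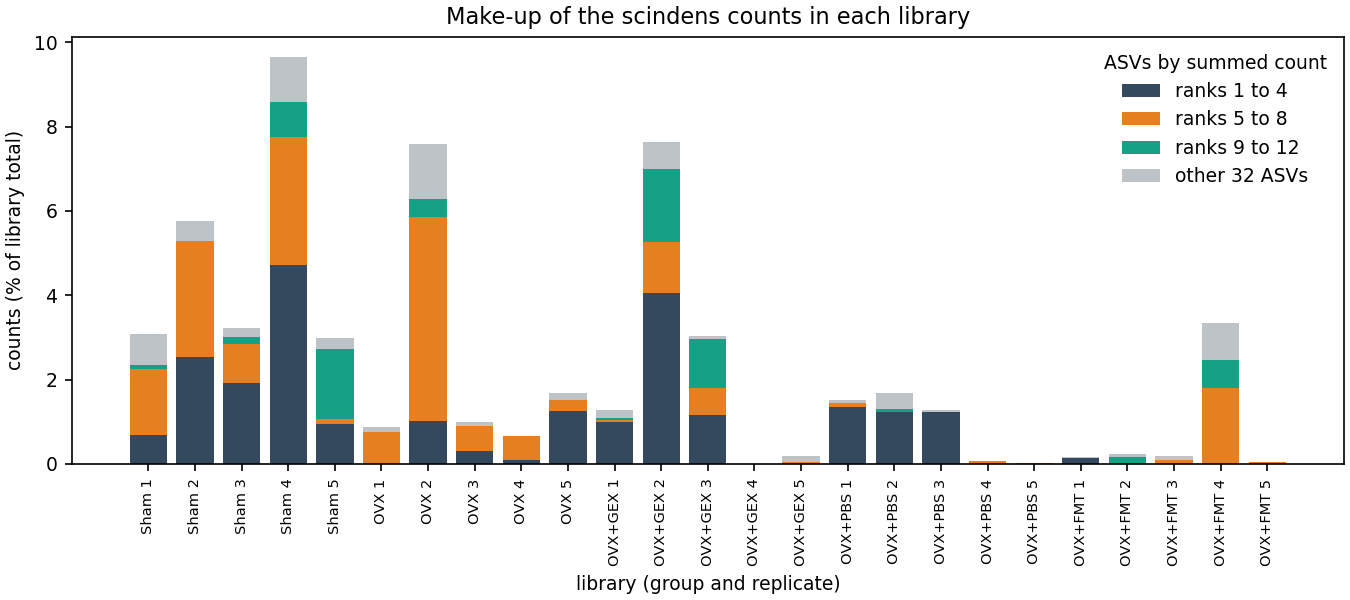
Scindens counts as a percentage of each library's total, stacked by abundance rank of the ASVs (ranks 1 to 4, 5 to 8, 9 to 12 and the other 32 ASVs). Ranks 1 to 4 fill most of the bars of OVX+PBS replicates 1 to 3, and ranks 5 to 8 most of the bar of OVX replicate 2.

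ASVs ranked 9 to 12 (ASV_132, ASV_178, ASV_190 and ASV_207) were concentrated in a few libraries. They summed to 187 and 167 counts in Sham replicates 4 and 5, to 174 and 103 in OVX+GEX replicates 2 and 3, and to 63 in OVX+FMT replicate 4. They held 55.3% of the scindens counts of Sham replicate 5, where ranks 5 to 8 held 4.30%. Outside OVX replicate 2, with 46 counts, they were not seen in OVX.

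In some libraries the ASVs of a set had similar counts, and in others part of the set was at 0. All of ranks 1 to 4 were seen in 10 libraries and only some of them in 6. In Sham replicate 4 the ASVs ranked 1 to 4 had 256 to 275 counts, in OVX+GEX replicate 2 they had 94 to 109 and in OVX+PBS replicate 1 70 to 80, so the highest was 1.07, 1.16 and 1.14 times the lowest. Over the 10 libraries this ratio reached 2.26, in OVX+PBS replicate 2. Among the other 6, Sham replicate 5 had 51, 21, 24 and 0 counts of the 4 ASVs, OVX replicate 2 had 41, 26, 0 and 47, and OVX+FMT replicate 1 had 0, 30, 0 and 0. Of ranks 5 to 8, in OVX replicate 2 ASV_62, ASV_68 and ASV_76 had 176, 149 and 179 counts and ASV_86 had 31.

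Spearman's rho of the shares was taken across all 25 libraries, which differ in depth and group. It was 0.76 to 0.94 for the 6 pairs within ranks 1 to 4, 0.45 to 0.79 within ranks 5 to 8 and 0.65 to 0.89 within ranks 9 to 12. Between the sets it was 0.26 to 0.55 for ranks 1 to 4 with 5 to 8, 0.26 to 0.50 for ranks 1 to 4 with 9 to 12, and -0.0021 to 0.56 for ranks 5 to 8 with 9 to 12. Among all 378 other ASVs that passed the filter, the 3 most like ASV_48 were ASV_55, ASV_57 and ASV_59 (rho 0.94, 0.88 and 0.86), and the next was an ASV of Schaedlerella arabinosiphila at 0.72. The 3 most like ASV_62 were ASV_68, ASV_76 and ASV_86 (rho 0.79, 0.69 and 0.64). For ASV_132 the first 2 were ASV_178 and ASV_190 (rho 0.86 and 0.74), followed by an ASV of [Clostridium] viride at 0.71. These values describe the table and are not tests; whether the ASVs of a set are gene copies of the same genome was not tested.

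**Figure D5:**
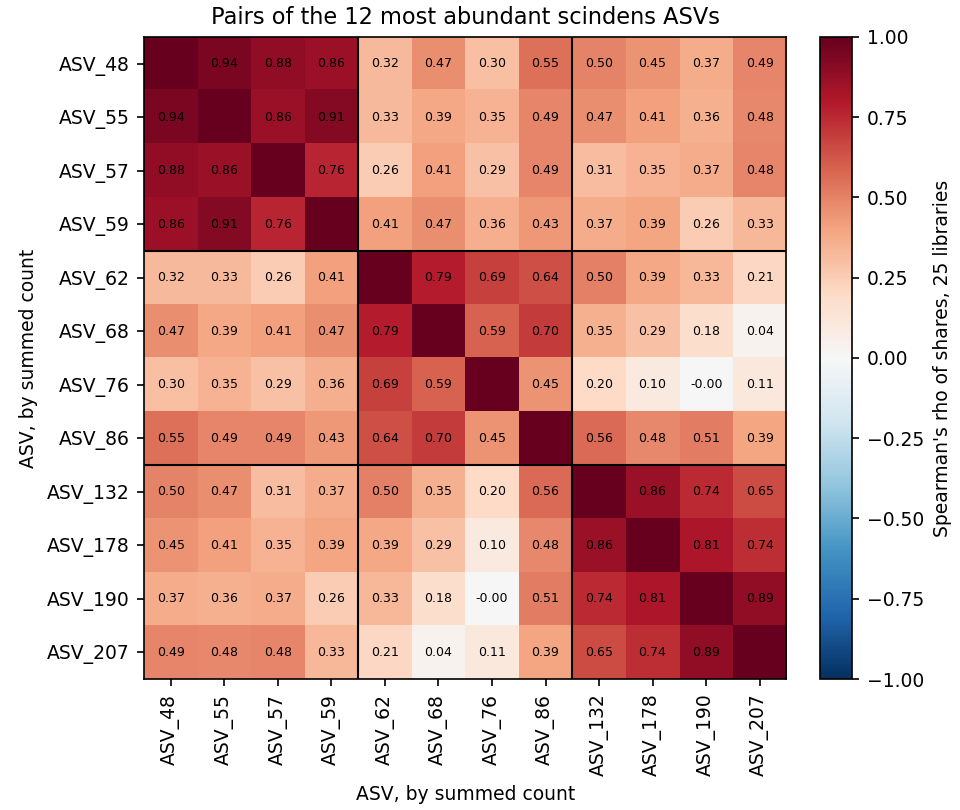
Spearman's rho of the shares of each pair among the 12 most abundant scindens ASVs over 25 libraries; rows and columns are ASVs by summed count, and lines separate ranks 4 and 8. Pairs within the blocks on the diagonal run from 0.45 to 0.94 and pairs outside them from -0.0021 to 0.56.

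The remaining 32 ASVs had at most 118 counts each. ASV_239, the most abundant of them, was seen in 3 Sham libraries, in 0 OVX libraries, in 1 OVX+GEX and 1 OVX+PBS library and in 3 OVX+FMT libraries. ASV_252 had 49 counts in OVX+GEX replicate 2 and 63 in OVX+FMT replicate 4 and was seen nowhere else, and ASV_253 had 111 counts, all in OVX replicate 2. These 3 were chosen after their values were seen.

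The species whose shares followed scindens most closely were mostly other Lachnospiraceae. By Spearman's rho over the 25 libraries, Schaedlerella arabinosiphila was first at 0.87, before Lacrimispora saccharolytica at 0.84, Lacrimispora aerotolerans at 0.84, [Clostridium] viride of the Oscillospiraceae at 0.81 and Blautia producta at 0.80. The median over the 124 other species tested was 0.19, and over the 38 Lachnospiraceae among them 0.42. Schaedlerella arabinosiphila averaged 2.30% ± 1.54 in Sham, 1.22% ± 1.59 in OVX, 0.540% ± 0.742 in OVX+GEX, 0.330% ± 0.398 in OVX+PBS and 0.763% ± 1.34 in OVX+FMT (SD, n = 5). It was thus highest in Sham as scindens was, with OVX+PBS and not OVX+FMT at the bottom.

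Other bacteria of the same bile acid steps were looked up by name. Of 6 names of species with known or reported 7α-dehydroxylation, 5 had no ASV, Clostridium hylemonae, Clostridium hiranonis and Extibacter muris among them. [Clostridium] leptum had 4 ASVs with 29 counts in all, too few to be tested. Scindens was therefore the only name of this kind that was tested.

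Bacteria of genera known for bile salt hydrolase, which frees bile acids for the later steps, had 10 species in the table, and 7 were tested. Of these, 0 rose and 0 fell past the threshold in each of the 7 comparisons, where edgeR called at most 1 of 125 species (0.8%). Ligilactobacillus murinus, a lactic acid bacterium and the most abundant of them, averaged 11.9% ± 6.37 in Sham and 24.9% ± 9.07 in OVX+FMT (SD, n = 5; edgeR adjusted p = 0.235). Bacteroides caccae, a glycan degrader, averaged 1.25% in Sham and 1.52% in OVX+FMT (edgeR adjusted p = 0.639). In that comparison all 7 had a higher estimate in OVX+FMT, as had 53 of the 125 species tested. The lowest adjusted p among the 7 was that of Bifidobacterium pseudolongum subsp. globosum (edgeR adjusted p = 0.0657), which had no count in Sham and averaged 0.266% ± 0.240 in OVX+FMT (SD, n = 5).

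Among taxa with hydroxysteroid dehydrogenases, which oxidise the hydroxyl groups of bile acids, Mediterraneibacter [Ruminococcus] gnavus was the only 1 of 3 species tested. It averaged 0.739% in Sham and 0.163% in OVX+FMT (log2 fold change -2.09, SE 0.87, edgeR adjusted p = 0.235). None of the 3 names of other steroid side-chain cleavers had an ASV.

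The 3 other Lachnoclostridium species were tested and 0 passed the threshold in any of the 7 comparisons. Lachnoclostridium pacaense averaged 1.36% ± 0.636 in Sham, 0.690% ± 0.796 in OVX, 0.331% ± 0.324 in OVX+GEX, 0.172% ± 0.189 in OVX+PBS and 0.520% ± 0.958 in OVX+FMT (SD, n = 5). Lachnoclostridium [Clostridium] polysaccharolyticum averaged 0.494%, 0.410%, 0.396%, 0.0809% and 0.0120% in the same order. These 2 had their highest mean in Sham, and the second its lowest in OVX+FMT. Lachnoclostridium [Clostridium] populeti, with 98 counts in all, went otherwise: it averaged 0.00767% in Sham, 0.0154% in OVX+GEX and 0.121% in OVX+PBS and had no count in OVX or OVX+FMT.

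The background of calls was low throughout. At the species level edgeR called 1 of 125 in OVX+GEX against Sham (0.8%) and 0 of 125 in each of the other 6 comparisons (0.0%), with 10, 10, 16, 14, 22 and 15 species at an unadjusted p under 0.05 for OVX against Sham, OVX+GEX against OVX, OVX+PBS against OVX, OVX+FMT against OVX+PBS, OVX+PBS against Sham and OVX+FMT against Sham. DESeq2 called 1, 0, 1, 0, 5 and 9 species there and limma on centred log-ratios 3, 0, 0, 2, 3 and 4. Among ASVs edgeR called 0 of 379 (0.0%) in the 6 comparisons other than OVX+FMT against Sham, with 65 to 97 at an unadjusted p under 0.05, 2 to 11 past the threshold by DESeq2 and 0 to 4 by limma. Complete separation with lower values in the first group was seen in 2 of 125 species for OVX+GEX against OVX (1.6%), 2 for OVX+PBS against OVX (1.6%), 3 for OVX+GEX against Sham (2.4%) and 5 for OVX+FMT against Sham (4.0%), and in 1 (0.264%), 2 (0.528%), 9 (2.37%) and 9 (2.37%) of 379 ASVs.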

How the data were processed

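Fecal 16S rRNA gene amplicons of 25 mouse libraries were analysed. The authors deposited read counts per ASV with a taxonomy of 7 ranks, converted from a BIOM file per the file headers. The submitters' processing notes name Subread, with no version or role. What removed sequencing errors, which primers and which taxonomy database were used is not given in the sources used here. No count of 1 occurs in the table (0 values), and the lowest scindens count above 0 was 2. Columns were matched to samples by name; 5 columns spelled OVX+GES were taken as the OVX+GEX samples of the same number.

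Counts were summed per genus and species name. Species and ASVs with at least 3 counts in at least 5 libraries (125 and 379) were tested with edgeR 4.0.16 (glmQLFit, TMM, R 4.3.3), with all 25 libraries in 1 fit of 5 groups. Adjusted p-values are Benjamini-Hochberg values over all features of a comparison, the threshold was 0.05, and the 7 comparisons were not adjusted for each other. Standard errors were derived from the F statistic. Exact two-sided permutation tests used all splits of 10 libraries. Tried instead were limma 3.58.1 on log-ratios centred per library (0.5 added to each count), the Wald test and the size factors of DESeq2 1.42.0, TMMwsp, library totals without factors, other filters, only the groups compared, a replicate block, the whole genus and each library left out; shares of Lachnospiraceae counts were added after the data were seen. The scripts were tested on simulated data. Named ASVs were the 8 with the highest summed count and those past the threshold; likeness was Spearman's rho of shares. The members and lists were chosen with earlier results of these data known.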

Additional observations from a re-analysis of the deposited data

Results flagged for a closer look

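In 51 groups of 5 values checked, 19 values lay apart by Dixon's test at its 95% critical value. For normally distributed values chance gives this in about 1 of 20 groups. Many of the groups here hold skewed shares with several zeros, so that rate does not apply to them. Several of the 19 values came from the same library. The values of an ASV's set move together and most sets have zeros in several libraries, so the 19 are not independent.

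OVX+FMT replicate 4 lay above its group in the scindens share of the library (3.33%, next 0.228%), in the share of Lachnospiraceae counts (8.92%, next 2.82%) and in scindens ASVs seen (9, next 3). It also stood apart for ASV_62 (0.696%), ASV_68 (0.633%) and ASV_86 (0.464%). For ASV_62 and ASV_68 these were the lone counts of the group, which the rule always flags. It held 0 counts of the 4 most abundant ASVs.

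OVX replicate 2 lay above its group in the scindens share (7.59%, next 1.69%) and for ASV_62 (1.59%), ASV_68 (1.35%) and ASV_76 (1.62%). OVX+GEX replicate 2 did so for ASV_48 (1.06%), ASV_57 (0.942%), ASV_59 (1.09%) and ASV_68 (0.471%).

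The other values were likewise lone counts of an ASV in its group, which the rule always flags: ASV_55 in OVX+FMT replicate 1 (0.134%), ASV_76 in OVX+GEX replicate 3 (0.248%), OVX+PBS replicate 1 (0.0552%) and OVX+FMT replicate 3 (0.0894%), and ASV_86 in OVX+PBS replicate 5 (0.0340%).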

How the results depend on the processing

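The scindens log2 fold change kept its direction and its side of the threshold under every alternative run for OVX against Sham, OVX+GEX against Sham, OVX+PBS against Sham and OVX+FMT against OVX+PBS. OVX+GEX against OVX turned from 0.37 to -1.43 by limma, -0.035 with only the groups compared and -0.10 with the replicate block; the pair OVX+PBS and OVX+GEX turned from -1.42 to 0.059 by limma. The causes were not tested. With 1 library left out the log2 fold changes ranged from -1.88 to -0.25 (OVX against Sham), -0.49 to 1.16 (OVX+GEX against OVX), -1.14 to 5.35e-07 (OVX+PBS against OVX, the upper end without OVX replicate 2), -2.32 to -0.38 (OVX+FMT against OVX+PBS), -1.60 to -0.39 (OVX+GEX against Sham), -2.34 to -1.58 (OVX+PBS against Sham) and -4.54 to -2.39 (OVX+FMT against Sham).

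Counts of calls moved more. By DESeq2 they were 1 species and 2 ASVs for OVX against Sham, 2 ASVs for OVX+GEX against OVX, 1 and 5 for OVX+PBS against OVX, 6 ASVs for OVX+FMT against OVX+PBS, 3 and 6 for OVX+GEX against Sham, 5 and 11 for OVX+PBS against Sham, and 9 and 11 for OVX+FMT against Sham. By limma they were 3 species and 1 ASV for OVX against Sham, 2 species for OVX+FMT against OVX+PBS, 3 and 4 for OVX+GEX against Sham, 3 species for OVX+PBS against Sham, and 4 and 12 for OVX+FMT against Sham. Without a filter they were 1 ASV for OVX against Sham, 1 for OVX+GEX against OVX, 6 for OVX+PBS against OVX, 2 species and 3 ASVs for OVX+GEX against Sham, and 4 and 5 for OVX+PBS against Sham. With the stricter filter they were 2 ASVs for OVX+PBS against OVX and 1 species each for OVX+PBS and OVX+FMT against Sham. With only the groups compared they were 2 ASVs for OVX+GEX against OVX, 4 for OVX+PBS against OVX, 1 species and 2 ASVs for OVX+FMT against OVX+PBS, 2 and 13 for OVX+GEX against Sham, and 8 species for OVX+PBS against Sham. TMMwsp gave 2 ASVs for OVX+PBS against OVX and 2 species for OVX+GEX against Sham, DESeq2's size factors 1 species for OVX+PBS against Sham, and plain totals 0 species for OVX+GEX against Sham.

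With 1 library left out, OVX+FMT against Sham ranged from 0 to 8 species and from 0 to 6 ASVs, OVX+FMT against OVX+PBS from 0 to 2 species and 0 to 1 ASV, OVX+GEX against Sham from 0 to 2 species and OVX+PBS against OVX from 0 to 1 ASV. The highest species counts were those without OVX+FMT replicate 4. The other counts stayed at 0.

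The replicate block gave 0 species and 3 ASVs for OVX+GEX against Sham and changed no other count by over 1.5 times. Deviations of same-numbered libraries from their group means had correlations from -0.23 to 0.19, 5 of 35 pairs being over 0.1. The highest, 0.19, 0.19 and 0.14, were replicates 4, 5 and 2 of OVX+GEX against OVX, where replicates 1 and 3 had 0.089 and -0.0047. No pairing by number was seen over the 35 pairs as a whole, though a weak shared effect could be missed and the labels do not settle it.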
